A study of Mus musculus with 6 samples.

Results

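The mitochondrial carrier family is a set of proteins, most of them named Slc25a with a number. Most lie in the inner membrane and move metabolites between the cytosol and the mitochondrial matrix. The family also has members elsewhere, such as the peroxisomal Slc25a17 and the outer membrane Slc25a46. Its members were taken as every probe set annotated to a single gene symbol beginning with Slc25a, plus those of Ucp2 and Ucp3, with Ucp1 left out. This gave 67 of the 22626 probe sets tested, and they stood for 34 of the 12393 genes with a symbol of their own. A gene table of the mouse genome lists 49 such family genes, and the other 15, Ucp2 and the citrate carrier gene Slc25a1 among them, were not analysed here.

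The values come from Affymetrix arrays of brown adipose tissue, with 3 arrays from control mice and 3 from YY1bKO mice. Controls carried floxed Yy1 alleles (YY1flox/flox), and YY1bKO mice carried the same alleles together with Ucp1Cre, a Cre recombinase under the promoter of Ucp1, which marks brown adipocytes. Both groups had a mixed background of C57BL6 and 129, an age of 3.5 months and 3 months of high fat diet behind them. Yy1 encodes the transcription factor Yin Yang 1, and the study asks how brown fat responds when brown adipocytes lose it. No group used here carries Ucp1Cre without the floxed alleles, and the labels do not say whether an array holds 1 animal or several.

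Mitochondrial carriers share a fold of repeated membrane-spanning helices and work mostly as exchangers, each for its own substrate. Adenine nucleotide and phosphate carriers feed ATP synthase, carboxylate and amino acid carriers link the citric acid cycle to the cytosol, and further members bring in cofactors, iron or fatty acids bound to carnitine. In brown adipose tissue the family includes the heat-making uncoupling protein Ucp1, and mitochondria of this tissue depend on carriers for acylcarnitines and branched-chain amino acids as fuels.

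Yy1 was lower in every YY1bKO array. Its brightest probe set read a log2 intensity of 9.90, 9.62 and 9.95 in control replicates 1, 2 and 3, and 8.38, 8.41 and 8.38 in the YY1bKO replicates (limma log2 fold change -1.43, adjusted p = 0.000887). A further 2 of its 4 probe sets fell, by 1.71 and, in a dim one, by 0.81, and the last, also dim, gave -0.06. The position of these probes against the floxed stretch was not given in the sources used here. Of 8 measured brown adipocyte markers none was dim, meaning a mean log2 intensity no higher than 6.48, the midpoint of the table, and 3 (Ppargc1a, Zic1 and Elovl3) were called higher. Of the other 5, Dio2 gave -0.87, Cox8b -0.21, Ucp1 -0.14, Cidea -0.12 and Cox7a1 0.00, none of them called, and the list median was -0.06. Skeletal muscle markers set the arrays apart. The mean log2 intensity of 8 such markers was 13.82 in control replicate 2, against 11.26 and 11.10 in the other control arrays and 12.25 to 12.80 in YY1bKO arrays. All 8 were highest in control replicate 2, all 8 were higher in every YY1bKO array than in control replicates 1 and 3, and none was called between the groups. Of 4 endothelial markers 3 were called lower in YY1bKO tissue, with log2 fold changes from -0.53 to -0.65. Over all genes limma called 9.72% higher and 7.78% lower. The 6 macrophage, 4 erythroid, 3 lymphocyte, 3 liver and 3 general adipocyte markers held no call, with the erythroid, lymphocyte and liver markers dim except Alas2, and 1 of 3 white adipocyte markers, Lep, was called lower (-2.0). The other white adipocyte markers, Retn and Nnat, gave 1.33 and 0.43 and were not called. The part of these cell types in the carriers' values was not tested. Fits with the muscle markers' mean as a covariate are given below for some carriers, as values only. In whole tissue, fewer cells of a type and less RNA per cell cannot be told apart.

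Carrier transcripts moved in both directions in YY1bKO tissue. At the brightest probe set of each gene, Slc25a28, Slc25a53, Slc25a36, Slc25a14 and Slc25a3 were higher and Slc25a23 and Slc25a42 were lower at an adjusted p under 0.05, which makes 5 higher and 2 lower of 34 genes. Among the 67 probe sets, 10 were higher and 4 lower. These added Slc25a51 and Slc25a39 on the higher side and Ucp3 and Slc25a26 on the lower side, so that 11 of the 34 genes had a called probe set. The share of all genes with a call at any of their probe sets was not computed. Since 16 of the carrier genes have several probe sets, the 11 cannot be set against the shares that follow. Over the whole table limma called 17.5% of genes at their brightest probe set and 16.0% of probe sets. By direction, 9.72% of genes and 8.83% of probe sets were called higher, and 7.78% of genes and 7.16% of probe sets lower. The carriers' shares, 20.6% of genes and 20.9% of probe sets, lay close to these. The median log2 fold change of the 34 genes was 0.06, with a middle range from -0.29 to 0.32, and that of all genes was 0.04, with -0.15 to 0.19. The 3 arrays of each group did not overlap for 14 of the 34 carrier genes, or 41.2%, where 38.5% of all genes behaved so, and for 27 of the 67 probe sets, or 40.3%, where the whole table had 36.2%. Another 9 carrier genes had an unadjusted p under 0.05 without passing the adjusted threshold. With the called genes counted in, 16 of the 34 had such a p in the limma fit, against 3966 of all 12393 genes.

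**Figure D1:**
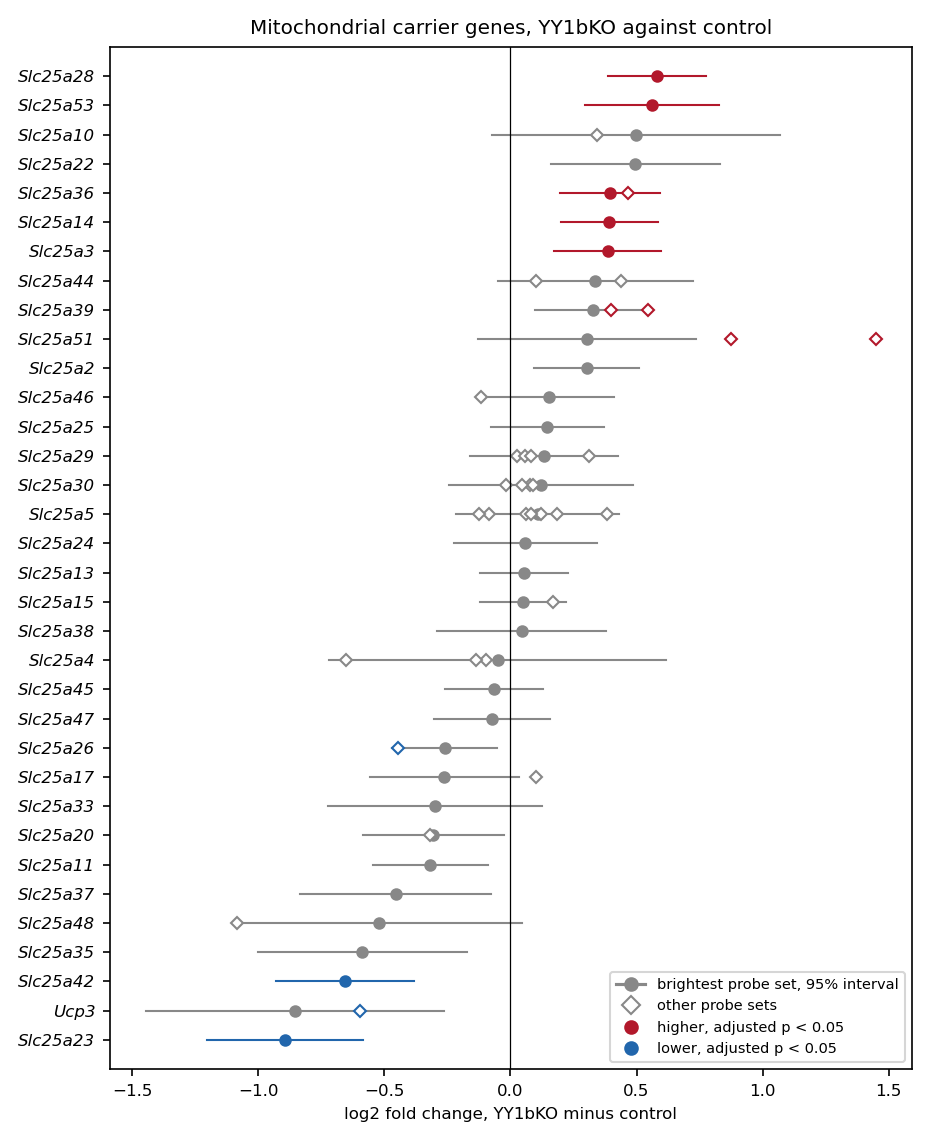
Log2 fold change of each of the 34 carrier genes, YY1bKO minus control. Filled points are the brightest probe set with its 95% interval from the limma fit, open diamonds are further probe sets of the gene, and red and blue mark those called higher and lower. The brightest probe sets run from -0.89 for Slc25a23 to 0.58 for Slc25a28, and the diamonds of Slc25a51 reach 1.45.

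Leaving out 1 array at a time set how firmly these calls stood. Only Slc25a23 and Slc25a28 kept their calls without each of the 6 arrays, and the other 12 of the 14 called probe sets lost theirs without at least 1 array. Higher and lower genes numbered 1 and 2 when control replicate 1 was left out, 5 and 5 for control replicate 2, and 5 and 3 for control replicate 3. Leaving out YY1bKO replicate 1 gave 1 and 1, leaving out replicate 2 gave 1 and 2, and leaving out replicate 3 gave 2 and 1. Calls over the whole table moved too. From 1997 higher and 1619 lower probe sets they went to 2607 and 2473 without control replicate 2, to 1002 and 811 without control replicate 1, and to 1509 and 1276 without control replicate 3. They came to 808 and 773, 831 and 699, and 871 and 753 without YY1bKO replicates 1, 2 and 3 in turn. With the muscle markers' mean as a covariate there were 10 higher and 6 lower carrier genes, and 3067 higher and 2926 lower probe sets over the whole table. Control replicate 2 was the control value farthest from the other two in 20 of the 34 carrier genes and in 47.7% of all genes. Control tissue had the larger SD for 26 of the 34, or 76.5%, against 66.5% of all genes.

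The adenine nucleotide carriers held the largest called fall. Slc25a23, a calcium-regulated carrier that exchanges ATP-Mg for phosphate, read 8.27, 7.82 and 8.15 on the log2 scale in control replicates 1 to 3 and 7.20, 7.09 and 7.27 in YY1bKO tissue. Every YY1bKO value lay well under the lowest control value. This is a difference of -0.89 ± 0.13 (SE) in log2 intensity, 1.86-fold lower (adjusted p = 0.00706). Its relatives with the same exchange did not pass the test, with 0.15 for Slc25a25 (adjusted p = 0.357) and 0.06 for Slc25a24, whose probe set is dim. Whether the responses of these relatives differ was not tested.

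Slc25a4, the ADP/ATP carrier of heart and skeletal muscle, followed the muscle markers across the arrays at its brightest probe set. Its brightest probe set read 12.66, 13.72 and 12.67 in control replicates 1 to 3 and 13.03, 13.03 and 12.84 in YY1bKO tissue, so control replicate 2 was highest and the YY1bKO arrays lay between it and the other controls. Between the groups it differed by -0.05 ± 0.28 (SE, adjusted p = 0.931), and its 95% interval ran from -0.72 to 0.62. The log2 fold change was 0.30 without control replicate 2 (adjusted p = 0.0618), and -0.23 with the muscle markers' mean as a covariate (adjusted p = 0.0743). All 4 probe sets of Slc25a4 peaked in control replicate 2. Their log2 fold changes were negative, down to -0.65 in a dim probe set, and none was called. In that dim probe set the YY1bKO arrays (5.25, 5.59 and 5.27) lay under all controls (5.71, 6.65 and 5.71). In another, YY1bKO replicate 3 (12.23) lay under all controls.

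Slc25a5, the ADP/ATP carrier of most dividing tissues, ran the other way in that array. The brightest of its 8 probe sets read 12.86, 12.47 and 12.98 in control and 12.89, 12.87 and 12.87 in YY1bKO tissue. Control replicate 2 was the lowest of the 6 arrays, and the remaining 5 lay together. The log2 fold change was 0.11 ± 0.14 (SE, adjusted p = 0.653), with a 95% interval from -0.21 to 0.43, and its 8 probe sets ran from -0.12 to 0.38 with no call. Several of these probe sets carry a suffix that the array maker uses for probes shared with other transcripts, and a Slc25a5 pseudogene exists, so their levels may not be that of Slc25a5 alone.

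**Figure D2:**
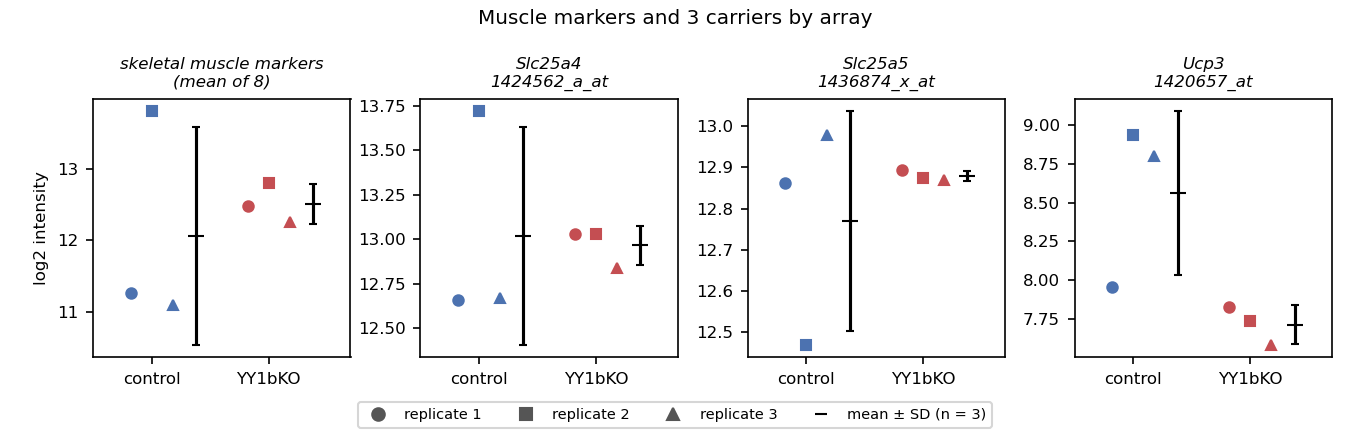
Log2 intensity by array of the mean of 8 skeletal muscle markers and of the brightest probe sets of Slc25a4, Slc25a5 and Ucp3. Symbols are replicates, and black marks give the mean and SD of 3 arrays. Control replicate 2 is highest for the muscle markers, Slc25a4 and Ucp3 and lowest for Slc25a5.

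The mitochondrial phosphate carrier gene Slc25a3, whose product supplies phosphate to ATP synthase and copper to cytochrome oxidase, was higher. It read 12.80, 12.98 and 12.74 in control replicates 1 to 3 and 13.23, 13.21 and 13.24 in YY1bKO tissue. All YY1bKO values lay above the highest control, and their SD was 0.02 against 0.13 in control. It rose by 0.39 ± 0.09 (SE) on the log2 scale, or 1.31-fold (adjusted p = 0.0303). The call was lost without control replicate 1 or 3 or any YY1bKO array, where the log2 fold change was 0.33 to 0.40 and the adjusted p 0.0747 to 0.104.

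Both probe sets of Slc25a36, a carrier of pyrimidine nucleotides, were higher. The brightest read 10.51, 10.31 and 10.48 in control and 10.84, 10.81 and 10.83 in YY1bKO tissue (log2 fold change 0.39 ± 0.08, SE, adjusted p = 0.0223). The dimmer one rose by 0.46 ± 0.11 (adjusted p = 0.0371). In both, the groups did not overlap, and both calls were lost without control replicate 1 or any YY1bKO array, at log2 fold changes of 0.39 to 0.55 and adjusted p of 0.0502 to 0.129. Slc25a33, the other pyrimidine nucleotide carrier, gave -0.30 ± 0.18 (adjusted p = 0.316), and without control replicate 2 it was called lower (-0.47, adjusted p = 0.0477). The difference between these relatives was not tested.

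Carriers of cofactors moved apart. Slc25a42, which brings coenzyme A into the matrix, fell in YY1bKO tissue, from 9.11, 8.83 and 9.10 in control replicates 1 to 3 to 8.22, 8.50 and 8.35. The gap between the groups was wider than the range of either. Its log2 fold change of -0.65 ± 0.12 (SE) is 1.57-fold lower (adjusted p = 0.0127). It was lost narrowly without control replicate 1 or either of YY1bKO replicates 1 and 3 (-0.59 to -0.65, adjusted p = 0.0502 to 0.0534). Slc25a17, a peroxisomal member that carries coenzyme A and related nucleotides, gave -0.26 ± 0.12 (adjusted p = 0.21), and its second probe set is dim.

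Slc25a51, the carrier of NAD+ into mitochondria, had the largest called change in the family, and its probe sets did not give the same answer. One probe set read 10.29, 9.39 and 10.37 in control replicates 1 to 3 and 11.44, 11.54 and 11.40 in YY1bKO tissue, 2.73-fold higher, or 1.45 ± 0.25 (SE) on the log2 scale (adjusted p = 0.0119). A second read 10.74, 10.26 and 10.97 in control and 11.44, 11.61 and 11.53 in YY1bKO tissue, or 0.87 ± 0.18 (adjusted p = 0.0198). In both, all YY1bKO arrays were above all controls. The brightest read 12.68, 12.13 and 12.83 in control and 12.73, 12.87 and 12.95 in YY1bKO tissue, where the groups overlapped and the log2 fold change was 0.30 ± 0.18 (adjusted p = 0.32). Control replicate 2 was the lowest array in all 3 probe sets. Without it the brightest gave 0.10 (adjusted p = 0.561), and with the muscle markers' mean as a covariate it was called higher (0.41, adjusted p = 0.0178), while the mean over the 3 probe sets, with all arrays, gave 0.87 (adjusted p = 0.0288). Leaving out YY1bKO replicate 2 ended the first call (1.41, adjusted p = 0.0539), and the second fell away without control replicate 1 or any YY1bKO array (0.83 to 0.92, adjusted p = 0.0566 to 0.0792). The transcript forms that these probe sets read were not given in the sources used here.

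**Figure D3:**
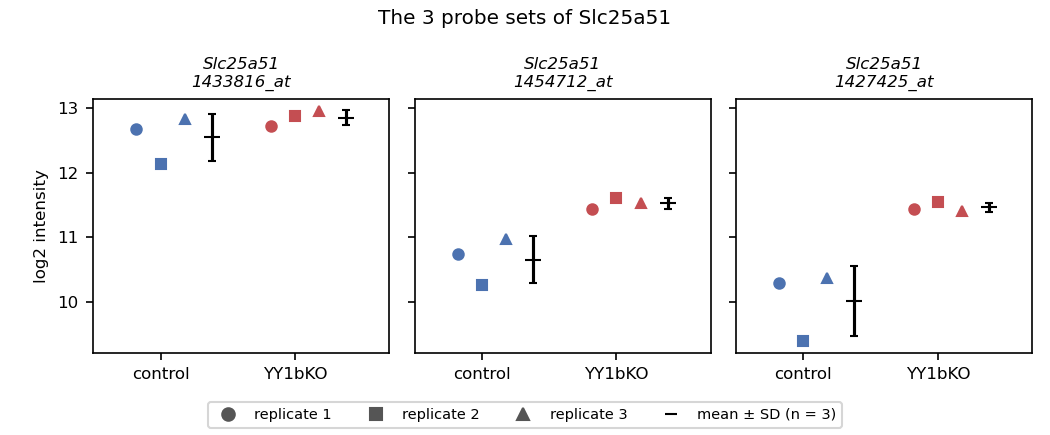
Log2 intensity of the 3 Slc25a51 probe sets in each array on a common axis. Symbols are replicates, and black marks give the mean and SD of 3 arrays. The groups overlap in the brightest probe set and are apart in the other two, where control means of 10.65 and 10.02 stand against YY1bKO means of 11.53 and 11.46.

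Slc25a26, which carries the methyl donor S-adenosylmethionine into mitochondria, was lower in both of its probe sets. The dimmer read 6.65, 6.62 and 6.85 in control and 6.25, 6.27 and 6.26 in YY1bKO tissue, with no overlap, and fell by 0.45 ± 0.09 (SE) on the log2 scale (adjusted p = 0.0184). Its mean of 6.485 stood barely above the dim limit of 6.483, and all its YY1bKO values lay under that limit. The brighter gave -0.26 ± 0.09 (adjusted p = 0.0929), and the mean of both was called (-0.35, adjusted p = 0.0248). The call of the dimmer was lost without control replicate 1 or any YY1bKO array (-0.44 to -0.47, adjusted p = 0.0504 to 0.0716).

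The iron and glutathione carriers included the rise with the smallest adjusted p in the family. Slc25a28, or mitoferrin 2, which imports iron for heme and iron-sulfur cluster synthesis, read 8.28, 8.39 and 8.36 in control replicates 1 to 3 and 8.97, 8.98 and 8.82 in YY1bKO tissue. The arrays within each group lay close together and the groups far apart. YY1bKO tissue exceeded control by 0.58 ± 0.08 (SE) on the log2 scale, or 1.5-fold higher (adjusted p = 0.00643). Slc25a37, or mitoferrin 1, the form known from red cell precursors, read 7.26, 7.35 and 6.79 in control and 6.69, 6.81 and 6.54 in YY1bKO tissue, which overlapped. Its log2 fold change was -0.45 ± 0.16 (adjusted p = 0.105), and it was called lower without control replicate 3 (-0.63, adjusted p = 0.0239). Erythroid markers gave no call, and 3 of the 4 measured were dim.

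Slc25a39, a carrier needed for glutathione in mitochondria, was higher in all 3 of its probe sets. The brightest read 12.95, 12.78 and 13.02 in control and 13.24, 13.33 and 13.16 in YY1bKO tissue, and its log2 fold change of 0.33 ± 0.10 (SE) did not pass (adjusted p = 0.065). The others rose by 0.40 ± 0.10 (adjusted p = 0.0378) and 0.54 ± 0.14 (adjusted p = 0.0458). The brightest probe set and the one that rose by 0.40 carry the suffix described for Slc25a5, so their levels may not be that of Slc25a39 alone. No probe set had overlapping groups. Both calls were lost without control replicate 1 or any YY1bKO array, at 0.38 to 0.60 and adjusted p of 0.0835 to 0.144. The mean over the 3 probe sets was called (0.42, adjusted p = 0.0378).

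Among the uncoupling proteins and their close relatives, Ucp3 was lower and Slc25a14 higher. Ucp3, an uncoupling protein homologue of muscle and brown fat, read 6.98, 7.24 and 7.50 in control and 6.53, 6.77 and 6.63 in YY1bKO tissue at its dimmer probe set, and fell by 0.60 ± 0.14 (SE) on the log2 scale (adjusted p = 0.0334). Its brightest probe set read 7.96, 8.94 and 8.80 in control and 7.83, 7.73 and 7.58 in YY1bKO tissue. There control replicate 1 lay near the YY1bKO arrays and the other controls about 1 log2 unit above it, and the log2 fold change of -0.85 ± 0.25 did not pass (adjusted p = 0.0622). Neither probe set had overlapping groups. The call of the dimmer was lost without control replicate 3 or any YY1bKO array (-0.47 to -0.66, adjusted p = 0.0626 to 0.118), and the brightest was called without control replicate 1 (-1.16, adjusted p = 0.00884). Ucp3 is also expressed in muscle, and the part of muscle in its values was not tested. With the muscle markers' mean as a covariate the log2 fold change of the brightest probe set was -0.94 (adjusted p = 0.0198).

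Slc25a14, a relative of the uncoupling proteins also called UCP5, read 6.42, 6.45 and 6.52 in control and 6.94, 6.78 and 6.84 in YY1bKO tissue, with no overlap. It rose by 0.39 ± 0.08 (SE, adjusted p = 0.0211), and the call was lost without control replicate 1 or any YY1bKO array (0.35 to 0.43, adjusted p = 0.055 to 0.0833). Slc25a30, a kidney-type relative, had 5 probe sets between -0.02 and 0.12 and no call. Ucp1, which was not a member here, gave -0.14 ± 0.08 (adjusted p = 0.314).

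Slc25a53, an X-linked member with no role given here, was also called higher. Its only probe set is dim and read 5.47, 5.73 and 5.52 in control against 6.25, 6.19 and 5.97 in YY1bKO tissue. The groups did not overlap, and the rise was 0.56 ± 0.11 (SE, adjusted p = 0.0189). The call was lost without control replicate 1 or 3 or YY1bKO replicate 1 or 2 (0.50 to 0.54, adjusted p = 0.0533 to 0.0763).

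**Figure D4:**
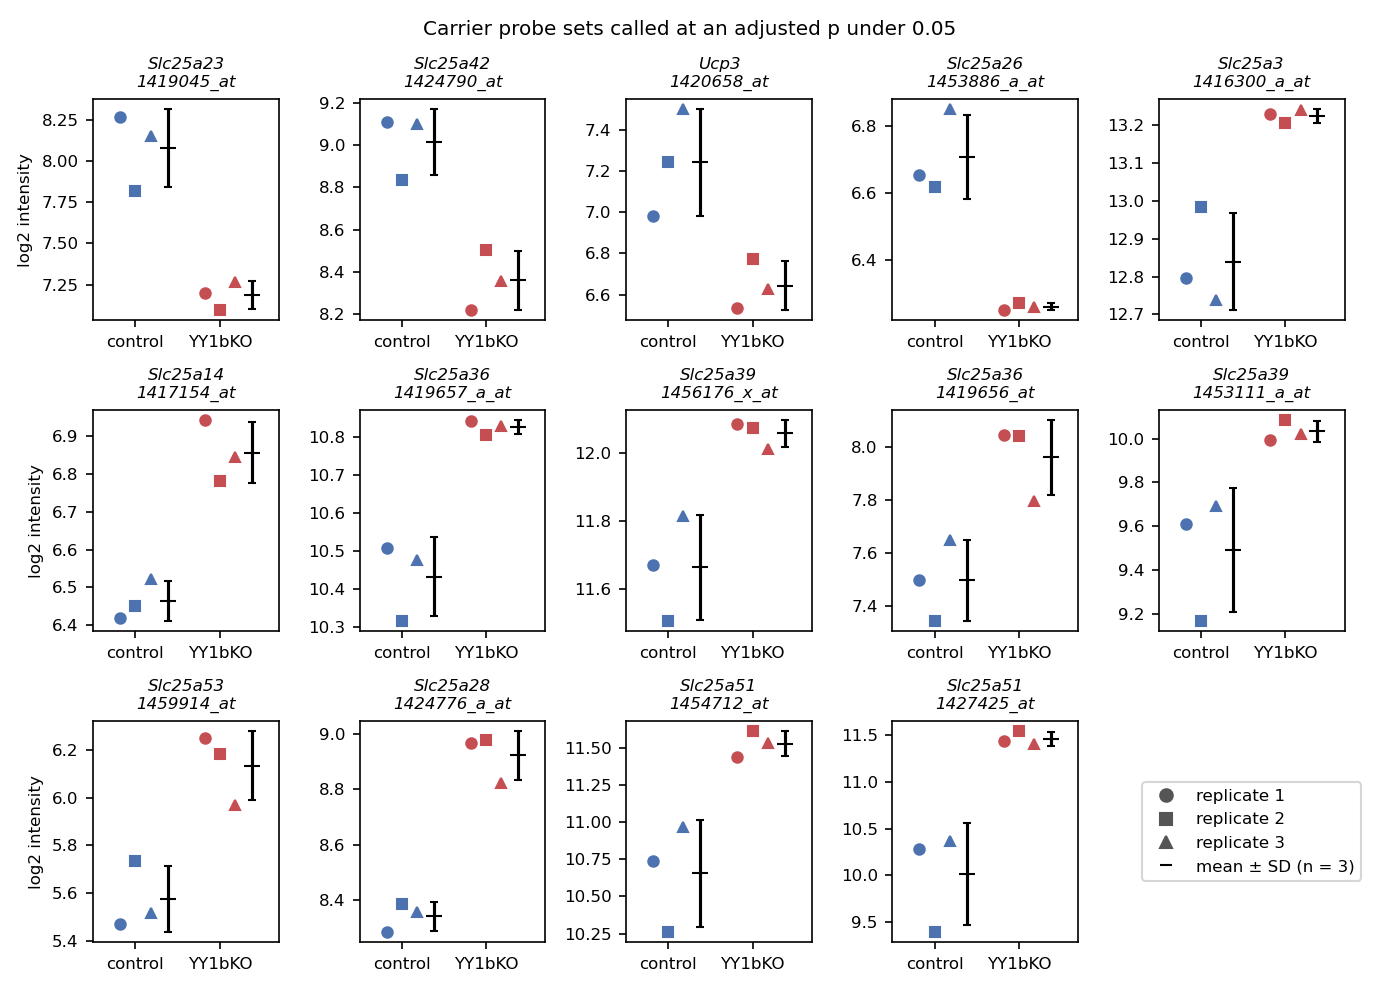
Log2 intensity by array of the 14 carrier probe sets called at an adjusted p under 0.05, in order of log2 fold change. Symbols are replicates, black marks give the mean and SD of 3 arrays, and each panel has its own axis. In every panel the 3 YY1bKO arrays lie on 1 side of the 3 controls.

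Carriers of fuels for oxidation were not called. Slc25a20, which exchanges acylcarnitines for carnitine so that fatty acids can be oxidised, read 12.75, 12.42 and 12.74 in control and 12.25, 12.28 and 12.46 in YY1bKO tissue at its brightest probe set. The groups overlapped through control replicate 2 and YY1bKO replicate 3. The log2 fold change was -0.31 ± 0.12 (SE, adjusted p = 0.134), its second probe set gave -0.32 (adjusted p = 0.0909), and without control replicate 2 the brightest was called lower (-0.41, adjusted p = 0.0231). Of the carboxylate carriers, Slc25a11, which exchanges malate for oxoglutarate in the malate-aspartate shuttle, gave -0.32 ± 0.10 (adjusted p = 0.0691), and the dicarboxylate carrier Slc25a10 gave 0.50 ± 0.24 (adjusted p = 0.221). The arrays of the groups did not overlap for Slc25a11, and the YY1bKO values of Slc25a10 spread from 7.71 to 8.49.

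None of the 7 amino acid carriers was called, with log2 fold changes from 0.04 to 0.50. Slc25a44, which brings branched-chain amino acids into brown fat mitochondria, read 8.41, 7.94 and 8.55 in control and 8.75, 8.63 and 8.54 in YY1bKO tissue, and control replicate 3 lay within the YY1bKO range. The log2 fold change was 0.34 ± 0.16 (SE, adjusted p = 0.219), with a 95% interval from -0.05 to 0.72. Without control replicate 2 it was 0.16, and with the muscle markers' mean as a covariate it was called higher (0.42, adjusted p = 0.0195). A second probe set gave 0.44 ± 0.15 (adjusted p = 0.0951). The mitochondrial glutamate carrier Slc25a22 read 8.62, 8.59 and 9.08 in control and 9.32, 9.23 and 9.23 in YY1bKO tissue, with no overlap. It did not pass (0.50 ± 0.14, adjusted p = 0.0576), and was called without control replicate 3 (0.65, adjusted p = 0.0124).

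The remaining amino acid carriers were the aspartate/glutamate carrier Slc25a13, the ornithine carriers Slc25a15 and Slc25a2, the basic amino acid carrier Slc25a29 and the glycine carrier Slc25a38. Their log2 fold changes were 0.05, 0.05, 0.30, 0.13 and 0.04 in this order. The Slc25a2 probe set, at 3.08 to 3.53 over the 6 arrays, and that of Slc25a13 were dim. Slc25a2 was called higher without control replicate 3 (0.36, adjusted p = 0.049).

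Among the other members, Slc25a35, which has no substrate named here, gave -0.59 ± 0.17 (adjusted p = 0.0653) with no overlap of the groups, and without control replicate 2 it was called lower (-0.77, adjusted p = 0.00504). Slc25a48, a carrier linked to choline, gave -0.52 ± 0.24 (adjusted p = 0.197). Its dimmer probe set stood at 6.89 in control replicate 1 against 4.36 to 4.83 in the other 5 arrays. The outer membrane member Slc25a46 gave 0.15 and -0.12 in its 2 probe sets, Slc25a45 -0.07 and the dim Slc25a47 -0.07, none of them called. Of the 16 carrier genes with several probe sets, 12 had all of them in 1 direction, and the exceptions Slc25a5, Slc25a17, Slc25a30 and Slc25a46 held no call.

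The genes around the carriers were read from lists chosen for the substrates they serve. Of 17 measured genes for other mitochondrial transport proteins, 2 were higher and 2 lower, or 23.5% against 17.5% of all genes, with a list median of -0.05. The sideroflexin genes, a family outside the mitochondrial carriers that was placed in this list, took both directions. Sfxn4 rose from 6.11, 6.12 and 6.42 to 7.44, 7.20 and 7.37 (log2 fold change 1.12 ± 0.12, SE, adjusted p = 0.0025), and Sfxn2 rose by 0.57 (adjusted p = 0.0113). Sfxn1, which carries serine, fell by 0.76 (adjusted p = 0.0341), a call lost without control replicate 1 or any YY1bKO array (-0.73 to -0.88, adjusted p = 0.0511 to 0.117). Abcb10, an ATP-driven transporter tied to heme synthesis, fell by 0.44 (adjusted p = 0.014). That call ended when YY1bKO replicate 2 or 3 was left out (adjusted p = 0.0569 to 0.0608), and a mean of its probe sets gave -0.20 (adjusted p = 0.189). The pyruvate carrier subunit gene Mpc1 gave 0.02, and the outer membrane channels Vdac1, Vdac2 and Vdac3 gave -0.28, 0.05 and -0.06, none of them called.

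Of 33 measured enzymes in the pathways that the carriers feed, 1 was higher and 5 lower, or 18.2% against 17.5% of all genes, with a list median of -0.05. Leaving out control replicate 2 gave 4 and 9, leaving out control replicate 3 gave 4 and 3, and leaving out control replicate 1 or YY1bKO replicate 1 or 3 gave 1 and 3, and the whole-table counts moved with the array left out as given above.

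Of 4 measured branched-chain amino acid enzymes, downstream of Slc25a44, 2 were called lower, where 7.78% of all genes were. Dbt read 10.80, 10.51 and 10.76 in control and 9.08, 9.19 and 9.15 in YY1bKO tissue, and fell by 1.55 ± 0.10 (SE) on the log2 scale (adjusted p = 0.000722). Bckdha fell by 1.11 ± 0.13 (adjusted p = 0.00373), and both encode subunits of the branched-chain ketoacid dehydrogenase. Bckdhb gave -0.59 (adjusted p = 0.0776) and Bcat2 -0.36 (adjusted p = 0.134).

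Of 4 measured heme and iron genes beside the mitoferrins, 2 were called lower, where 7.78% of all genes were. Fech, which inserts iron into heme, fell by 0.55 ± 0.09 (SE, adjusted p = 0.00871), from 10.76, 10.96 and 10.78 to 10.28, 10.32 and 10.24. Alas1, the rate-limiting enzyme of the pathway, fell by 0.34 (adjusted p = 0.0492), a call lost without any of the 6 arrays (-0.29 to -0.38, adjusted p = 0.0575 to 0.159). Iscu, the scaffold of iron-sulfur clusters, gave -0.30 (adjusted p = 0.0534), and Alas2, the erythroid form of Alas1, gave -0.33 (adjusted p = 0.256). Slc25a28, given above, was higher in the same arrays.

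The remaining calls were few. Mthfd2, a mitochondrial folate enzyme, rose by 0.67 ± 0.10 (SE, adjusted p = 0.00643), and glutamate dehydrogenase Glud1 fell by 0.32 (adjusted p = 0.0371), a call lost without any array except control replicate 2 (-0.28 to -0.32, adjusted p = 0.0859 to 0.121). All 5 glutathione genes had positive log2 fold changes, from 0.00 for Gsr to 0.44 for Gclm, and none was called. Of the coenzyme A enzymes, Pank1 gave -0.55 (adjusted p = 0.0791) and Coasy 0.46 (adjusted p = 0.0647). None of the 6 genes of the malate-aspartate and glycerol phosphate shuttles was called, nor any of 3 in citrate export or 3 in the carnitine shuttle. Got1 and Got2, the aspartate aminotransferases, were highest in control replicate 2, at 10.19 and 10.78 against 8.66 to 9.65 and 8.83 to 9.72 in the other arrays. As for the muscle markers, the YY1bKO arrays lay between control replicate 2 and the other controls.

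**Figure D5:**
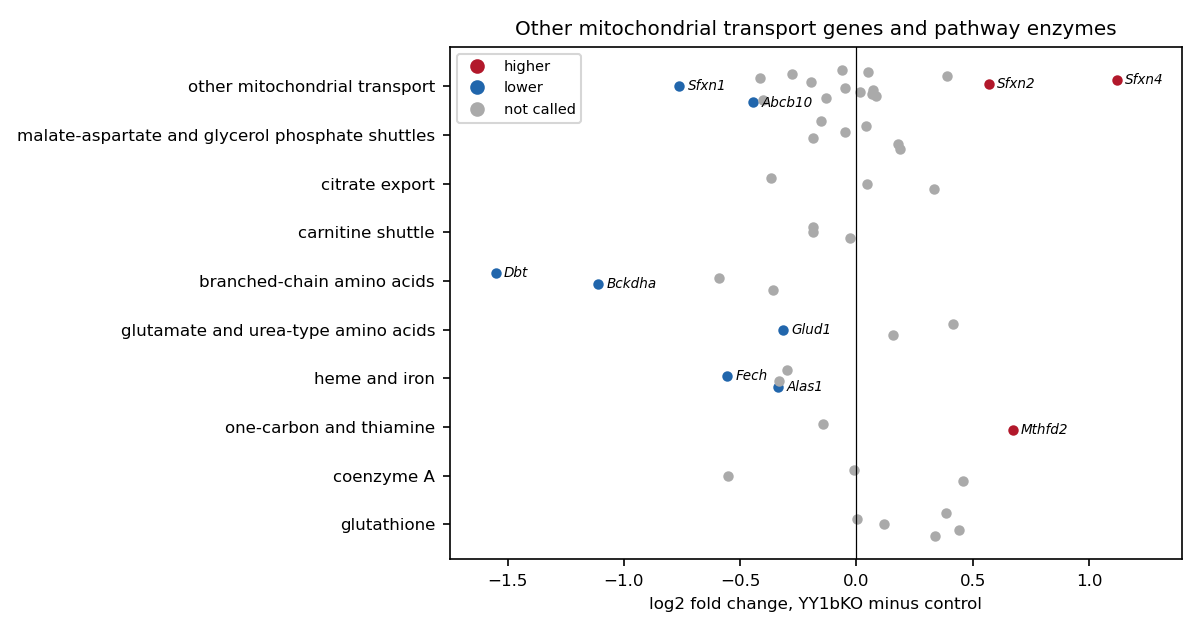
Log2 fold change, YY1bKO minus control, of the 17 other mitochondrial transport genes and the 33 pathway enzymes, each at its brightest probe set. Each point is a gene, and red and blue mark genes called higher and lower at an adjusted p under 0.05. The calls reach from -1.55 for Dbt to 1.12 for Sfxn4.

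Yin Yang 1 binds DNA, and the carriers' promoter windows were read for the letters of its motif. RefSeq windows (GRCm38.p6) of 250 bases before to 50 after a transcript start were given for 27 of the 34 carrier genes and for 9 of the 11 with a called probe set. The motif AANATGGC, or GCCATNTT where it lies on the other strand, stood in the windows of 2 of the 27 carrier genes, or 7.41%, and in those of 8.55% of the 9887 genes measured on the arrays that have a window. Over all 32851 windows the share was 6.05%. The carriers with a match were Slc25a3 and Slc25a14, both called higher. Their sites are shown because they are the only matches in the family, read 5′ to 3′ on the gene's own strand, with the motif in capitals.
Slc25a14, chrX:48623236-48623265, plus strand: gatatcaaccaAACATGGCatatcaagata
Slc25a3, chr10:91123918-91123936, minus strand: gttgggtgttcGCCATCTT
Counted from the transcript start, the Slc25a14 match begins at position -201 and that of Slc25a3 at position 43, where the window ends. With the core ATGGC, or GCCAT on the other strand, 10 of the 27 carrier genes had a match, or 37.0%, against 42.7% of measured genes. Among the carriers with calls, the core also stood before the start of Slc25a28, called higher, and of Slc25a42, called lower, and after another start of Slc25a14, and these sites are shown for comparison, with the core in capitals.
Slc25a14, chrX:48623686-48623712, plus strand: cggagtttaggATGGCtgcgccactgt
Slc25a28, chr19:43674906-43674932, minus strand: ggcctacaccaATGGCtgtctgggggg
Slc25a42, chr8:70212328-70212354, minus strand: gggcgtgaccaATGGCggcagggcctg
Slc25a42, chr8:70212382-70212408, minus strand: tgcccgtctgtGCCATgcttaccaatt
These matches describe the letters in the windows and carry no measurement of binding. In the windows of Slc25a23, Slc25a36, Slc25a39, Slc25a53 and Ucp3 neither set of letters was found.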

How the data were processed

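Total RNA was extracted with Trizol and labelled as biotinylated cRNA for Affymetrix arrays (labels' protocols). The table deposited by the authors gives 1 intensity to each of 22690 probe sets on 6 arrays. RMA is named in the submitters' processing notes, and neither version nor options were given there. The deposited intensities, all above 0 with a maximum of 21219, were taken as linear and turned to log2 with no pseudocount. RMA gives the arrays a common distribution, so a change shared by most transcripts would not show, and it compresses differences of dim probe sets. The table holds no detection calls. Array medians lay between 6.46 and 6.48, and the median log2 fold change was 0.03 over all probe sets.

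After 64 control probe sets were removed, lmFit and eBayes of limma 3.58.1 (R 4.3.3) were fitted to all 22626 probe sets with group as the sole term. Tests were two-sided, with Benjamini-Hochberg adjustment over the whole table. SE is limma's moderated error, and every adjusted p comes from this fit or a named alternative. Of the probe sets, 20380 had 1 symbol, 691 several and 1555 none here. A gene was read at its probe set with the highest mean. All 34 carrier genes matched the gene table by identifier. With 3 arrays per group, the number of arrays limits the precision, and since the labels do not say that replicates are separate animals, the p-values rest on a spread that may be technical.

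On simulated data with 200 changed probe sets among 22626, the fit called 79% of changes of 1 log2 unit and 13% of changes of 0.5. In the data 3616 probe sets were called, and the Benjamini-Hochberg adjustment depends on the share that changes. The simulated percentages therefore do not measure the power of the comparison reported here. The carriers, the lists and the tests were chosen with earlier results of these data known. Dim means a mean log2 intensity no higher than 6.48, the midpoint of the table. The genes named in full were those with a called probe set, and Slc25a4, Slc25a5, Slc25a20 and Slc25a44 whatever their values. From each other list up to 4 genes were named by smallest p, with Slc25a22 and Slc25a37 by array, the Vdac genes, Mpc1, Got1, Got2 and Gsr added after their values were seen. The grouping of carriers by role was also made after that. Protein sequences were not used here.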

Additional observations from a re-analysis of the deposited data

How the results depend on the processing

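No carrier changed sign in any alternative in which it was called. Higher and lower carrier probe sets, 10 and 4 as reported, numbered 4 and 3 with the replicate number as a block, 2 and 3 with an added fold of at least 1.5, 20 and 11 with the muscle markers' mean as a covariate, and 15 and 10 with array weights, which gave control replicate 2 the lowest weight. Leaving out each array gave 1 to 11 higher and 1 to 8 lower. Carrier genes, 5 and 2 as reported, numbered 2 and 2 with the block, 0 and 2 with the added fold, 10 and 6 with the muscle mean, 8 and 6 with array weights, 8 and 2 with the trend and robust options, 6 and 4 without dim probe sets, and 7 and 4 in the mean over probe sets, and 1 to 5 higher and 1 to 5 lower without each array. Other transport genes, 2 and 2, numbered 2 and 0 with the block, 1 and 1 with the added fold, 3 and 4 with the muscle mean and 2 and 1 in the mean over probe sets, and 2 higher and 0 to 3 lower without each array. Enzymes, 1 and 5, numbered 1 and 3 with the block, 1 and 2 with the added fold, 6 and 6 with the muscle mean, 5 and 8 with array weights, 3 and 6 without dim probe sets and 2 and 4 in the mean over probe sets, and 1 to 4 higher and 3 to 9 lower without each array. The promoter motif stood in 2 carrier genes and its shorter core in 10. The causes of these moves were not tested. The numbers of the replicates were not taken to pair the arrays, since deviations of same-numbered arrays correlated at -0.23, 0.09 and 0.24, so the block result is a check only. Whole-table calls, 1997 higher and 1619 lower as reported, were 1108 and 1089 with the block and 3067 and 2926 with the muscle mean. Array weights gave 2823 and 2622 over the whole table, and the added fold gave 751 and 917. The trend and robust options gave 2034 and 1689, and 1747 and 1558 of 11313 were called without dim probe sets. Of the 14 called carrier probe sets 7 held under the block, those of Slc25a23, Slc25a28 and Slc25a42 among them (adjusted p = 0.0175, 0.0308 and 0.0482). Quantile normalization and median centring kept the carrier gene counts at 5 and 2, and the fit on genes at their brightest probe set did so too. Median centring gave 9 higher and 4 lower carrier probe sets, and the Slc25a39 probe set that rose by 0.54 lost its call.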
